A study of Rattus norvegicus with 4 samples.

Results

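The natriuretic peptide system of heart muscle was followed in neonatal rat cardiomyocytes that received a mimic of a single member of the miR-106b~25 cluster. It was represented by 7 genes: the peptide genes Nppa, Nppb and Nppc, the receptor genes Npr1, Npr2 and Npr3, and the protease gene Corin. The genes were selected by symbol for their place in this pathway, with their measured values in these libraries already known, so their levels and changes are given as a description. A row was found for 6 of the 7 genes, among 15731 genes listed, and Nppc was not analysed here. The cells were ventricular cardiomyocytes of wild-type Wistar rats on postnatal day 1, and all 4 groups were transfected. One label takes the cells from ventricles freed of atria and another from hearts, and in the control library the ventricular light chain gene Myl2 had an RPKM of 6838 and the atrial Myl7 one of 18.8. The 3 test groups received a mimic of the human miR-106b-5p, miR-93-5p or miR-25-3p, introduced into rat cells, and the control group received cel-miR-67, a worm miRNA. RNA was collected 72 h after transfection, whereas the study's workflow drawing gives a shorter time, and the dose is 25 nM in one label and 25 mM in another. Each mimic had 1 library, so no difference between mimics has a replicate check and no p-value is given. Each library is bulk RNA of a primary culture, in which fewer cells of a type and less RNA per cell cannot be told apart.

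Atrial natriuretic peptide, the product of Nppa, and brain natriuretic peptide, the product of Nppb, are hormones that heart muscle makes and releases when it is stretched, and that promote salt excretion and relax vessels. The fetal ventricle expresses Nppa, which declines there after birth, and both genes rise in hypertrophy and heart failure, so they serve as markers of cardiac stress. Corin is a membrane protease that cleaves the atrial peptide precursor, Npr1 and Npr2 are receptors that make cyclic GMP when a peptide binds, and Npr3 takes peptides up and clears them.

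The sequences of the rat miRNAs that correspond to the mimics are given because miR-106b and miR-93 share their seed while the peptide genes differed between their libraries. The capitals mark the seed, bases 2 to 8, and the sequences are those of RefSeq on GRCr8, all on the minus strand of chromosome 12, at chr12:22157103-22157123 for miR-106b, chr12:22156894-22156916 for miR-93 and chr12:22156652-22156673 for miR-25.
rno-miR-106b-5p: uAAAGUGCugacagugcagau
rno-miR-93-5p: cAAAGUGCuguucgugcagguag
rno-miR-25-3p: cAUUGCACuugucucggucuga
The seed AAAGUGC is common to miR-106b and miR-93, and the seed of miR-25 is AUUGCAC.

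Nppa and Nppb are next to each other on chromosome 5, with 0 genes between them in the RefSeq table of GRCr8. The 150 bases before the start of each gene are given because both genes were lowest in the same library, and the capitals mark the motifs found in them. They lie on the plus strand of GRCr8 at chr5:163712034-163712183 for Nppa and at chr5:163699858-163700007 for Nppb.
Nppa: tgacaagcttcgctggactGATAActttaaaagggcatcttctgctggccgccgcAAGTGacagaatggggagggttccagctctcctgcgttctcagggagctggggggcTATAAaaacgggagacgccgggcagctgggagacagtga
Nppb: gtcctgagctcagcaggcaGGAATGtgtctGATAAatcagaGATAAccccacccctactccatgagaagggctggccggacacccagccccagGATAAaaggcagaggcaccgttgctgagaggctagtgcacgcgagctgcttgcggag
The search covered the 300 bases from 250 before to 50 after the start, on both strands, for GATAA (read by GATA factors), AAGTG (Nkx2-5), CATTCC (the MCAT element), TGANTCA (AP-1), the CArG box of serum response factor and TATAA (the TATA motif). The GATA motif occurred once in the Nppa window, beginning at base -131, and 3 times in that of Nppb, at -120, -109 and -57. The Nkx2-5 motif occurred 2 times for Nppa, at -250 and -95, and once for Nppb, at 46 on the opposite strand. The TATA motif was found at -39 for Nppa and at -207, on the opposite strand, for Nppb, and the MCAT motif only for Nppb, at -131 on the opposite strand. No 2 of these matches overlapped. Such motifs are common: of 33469 rat promoters of the same length, 26.5% held the GATA motif, 46.2% that of Nkx2-5, 14.2% MCAT and 26.2% TATA, against 7.33% for AP-1 and 1.64% for the CArG box. Npr1, Npr3 and Corin also had a window, and those of Npr1 and Corin held none of these motifs and that of Npr3 held 1 Nkx2-5 motif, at 37 on the opposite strand. A match is a description of the letters and not a measured site.

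The levels are RPKM values, reads scaled by gene length and library size, as the authors deposited them. Library sizes behind them were inferred from the values. They were 22674410 reads for cel-miR-67, 29749467 for miR-106b, 27315663 for miR-93 and 27253360 for miR-25, whereas the paper's methods state far fewer reads per sample. Reads on the listed genes numbered between 15175185 and 18797234. A change is the ratio of a mimic's RPKM to that of cel-miR-67, on the log2 scale and without a pseudocount. A gene counts as higher or lower when the ratio passes 1.3-fold and the RPKM is above 1.0 in both libraries. Intervals are 95% exact Clopper-Pearson intervals of the read ratio, from whole reads recovered from the RPKM values. They cover counting error only and leave out any difference between cultures. Counting uses the shortest gene length that gives whole reads, such as 336 bases for Nppb, so reads may be larger by a whole factor and the intervals then narrower.

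Nppa (ENSRNOG00000008176) was among the most abundant transcripts in 3 of the 4 libraries. Its RPKM was 1860 with cel-miR-67, 1607 after miR-106b, 261 after miR-93 and 4425 after miR-25, from 37417, 42407, 6328 and 106976 reads in the same order. It ranked 13 of all listed genes in the control library and 3 with miR-25, but 166 with miR-93. Thus the highest library held 16.9 times the RPKM of the lowest. Nppa was 7.12-fold lower with miR-93 than with cel-miR-67, a log2 change of -2.83 (95% interval -2.87 to -2.79), and 8th in order of fall among the 11280 genes compared. It was 2.38-fold higher with miR-25, a log2 change of 1.25 (1.23 to 1.27), and 173rd in order of rise among 11198 genes. With miR-106b the log2 change was -0.21 (-0.23 to -0.19), which did not pass the cutoff. Of all reads on listed genes, Nppa took up 0.247% in the control library, 0.226% after miR-106b, 0.0383% after miR-93 and 0.650% after miR-25.

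Nppb (ENSRNOG00000008141) was low in the miR-93 library as well, but was close to the control in the miR-25 library, where Nppa was highest. Its RPKM was 636 with cel-miR-67, 578 after miR-106b, 104 after miR-93 and 673 after miR-25. These values rest on 4847, 5778, 956 and 6167 reads. Nppb was 6.11-fold lower with miR-93, a log2 change of -2.61 (-2.71 to -2.51), and 13th in order of fall. Its log2 change was -0.14 (-0.19 to -0.08) with miR-106b and 0.08 (0.03 to 0.14) with miR-25, and neither passed the cutoff.

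**Figure D1:**
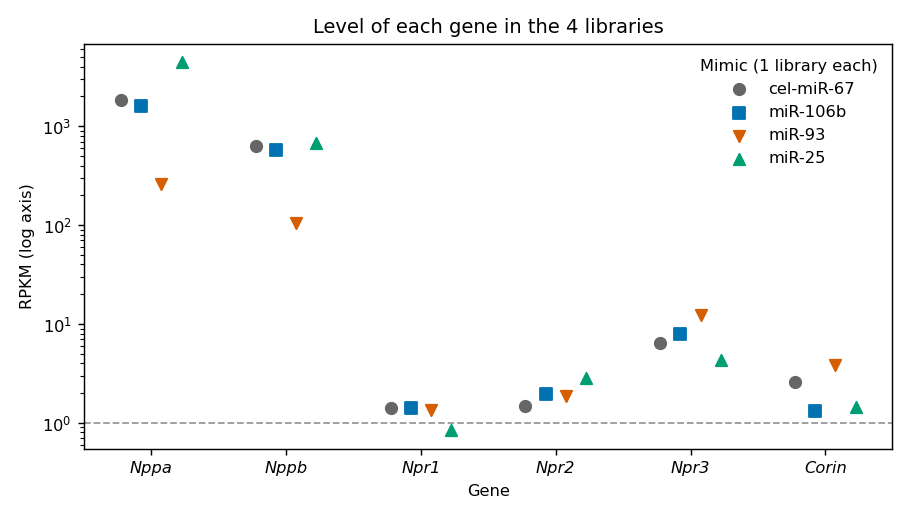
RPKM of the 6 genes with a row (horizontal axis) in the 4 libraries, on a log axis. Each point is 1 library, and the dashed line is the RPKM of 1.0 that a gene must exceed to be compared. The points of Nppa and Nppb with miR-93, at 261 and 104, lie below those of the other libraries, and the 3 receptors and Corin lie between 0.839 and 12.3.

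Against the control, the balance of the peptide transcripts was shifted toward Nppa only in the miR-25 library. The ratio of Nppa to Nppb, both in RPKM and so per length, was 2.92 (2.84 to 3.01) with cel-miR-67, 2.78 (2.7 to 2.86) after miR-106b, 2.51 (2.34 to 2.69) after miR-93 and 6.57 (6.40 to 6.74) after miR-25. Although both peptide genes differed several-fold between miR-93 and the control, their ratio was 2.51 in the former and 2.92 in the latter, with intervals that do not overlap.

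Corin (ENSRNOG00000002302), the protease that activates the atrial peptide precursor, did not follow Nppa. Its RPKM was 2.58 with cel-miR-67, 1.33 after miR-106b, 3.85 after miR-93 and 1.45 after miR-25, from 217, 147, 390 and 147 reads. Corin was therefore highest in the library where Nppa was lowest. The log2 change was 0.58 (0.33 to 0.82) with miR-93, -0.95 (-1.27 to -0.64) with miR-106b and -0.83 (-1.14 to -0.52) with miR-25, and each passed the cutoff. With miR-106b and miR-25 its RPKM was under the stricter cutoff of 2.0 that the methods state, at which Corin was not compared for these mimics and neither fall is called. The levels with miR-106b and miR-25 did not differ beyond counting error, with a log2 ratio of miR-25 to miR-106b of 0.13 (-0.21 to 0.47).

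Npr3 (ENSRNOG00000019184), the clearance receptor, was the most abundant of the 3 receptor transcripts per length in all 4 libraries. Its RPKM was 6.39 with cel-miR-67, 7.96 after miR-106b, 12.3 after miR-93 and 4.31 after miR-25, on 296, 484, 689 and 240 reads. It was higher with miR-93, at a log2 change of 0.95 (0.75 to 1.15), and lower with miR-25, at -0.57 (-0.82 to -0.32). With miR-106b the log2 change of 0.32 (0.11 to 0.53) did not pass the cutoff. When each library was rescaled to its summed RPKM, the change with miR-25 was -0.33 and no longer passed the cutoff.

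Npr1 (ENSRNOG00000014684) and Npr2 (ENSRNOG00000015991), the receptors that make cyclic GMP, were low in all libraries. Npr1, which binds the atrial and brain peptides, had an RPKM of 1.41 with cel-miR-67, 1.41 after miR-106b, 1.34 after miR-93 and 0.839 after miR-25. Its log2 change was 0.00 (-0.33 to 0.34) with miR-106b and -0.07 (-0.42 to 0.28) with miR-93, within counting error of no change. With miR-25 it was -0.75 (-1.15 to -0.35), from 93 reads against 130, but the RPKM with miR-25 was under 1.0 and the gene was not compared. Npr2, the receptor of C-type natriuretic peptide, had an RPKM of 1.48 with cel-miR-67, 1.97 after miR-106b, 1.86 after miR-93 and 2.87 after miR-25. It was higher with miR-106b, at a log2 change of 0.42 (0.11 to 0.74), and with miR-25, at 0.96 (0.66 to 1.26). The RPKM with cel-miR-67 was under the stricter cutoff of 2.0, at which Npr2 was not compared and neither rise is called. The log2 change of 0.33 (0.01 to 0.66) with miR-93 did not pass the cutoff, but was 0.48 and passed it when each library was rescaled to its summed RPKM. The miR-106b and miR-93 libraries did not differ beyond counting error, with a log2 ratio of miR-93 to miR-106b of -0.09 (-0.37 to 0.19).

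The receptor transcripts together had an RPKM of 9.28 with cel-miR-67, 11.4 after miR-106b, 15.5 after miR-93 and 8.02 after miR-25, and Npr3 held 68.9%, 70.2%, 79.4% and 53.7% of this sum. The ratio of Npr3 to Npr2 was 4.33 (3.52 to 5.35) with cel-miR-67, 4.03 (3.44 to 4.73) after miR-106b, 6.65 (5.68 to 7.81) after miR-93 and 1.5 (1.26 to 1.78) after miR-25. The excess of Npr3 over Npr2 was thus largest in the library with least peptide mRNA and smallest in the library with most Nppa. Over Npr1, the ratio of Npr3 was 4.53 (3.68 to 5.62) for cel-miR-67, 5.64 (4.72 to 6.75) for miR-106b, 9.21 (7.70 to 11.1) for miR-93 and 5.14 (4.03 to 6.60) for miR-25, so that the miR-93 library was again the highest, while the intervals of the other libraries overlap.

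**Figure D2:**
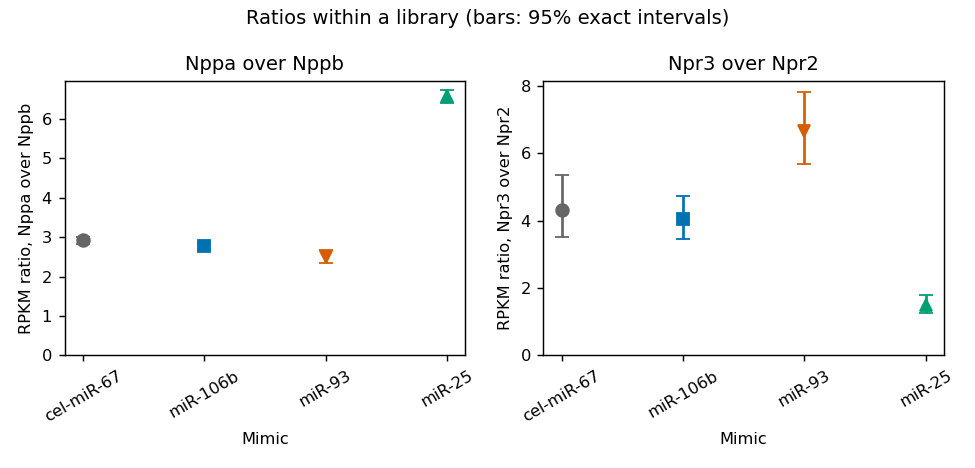
Ratio of Nppa to Nppb (left) and of Npr3 to Npr2 (right) within each of the 4 libraries, from RPKM values, with 95% exact intervals for counting error. Nppa over Nppb was 6.57 with miR-25 and at most 2.92 in the other libraries, and Npr3 over Npr2 was 6.65 with miR-93 and 1.5 with miR-25.

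Counted over the genes, 1 was higher and 1 lower of 6 compared with miR-106b, 2 were higher and 2 lower of 6 with miR-93, and 2 were higher and 2 lower of 5 with miR-25. Among all genes compared, 11.9% were higher and 12.7% lower with miR-106b, 15.1% higher and 15.6% lower with miR-93, and 19.3% higher and 22.6% lower with miR-25. When each library was rescaled to its summed RPKM, the balance of all genes turned toward higher, with 2839 of 11280 higher and 1086 lower for miR-93 and 4087 of 11198 higher and 1441 lower for miR-25, against 1707 and 1762, and 2166 and 2532, as deposited. The genes were chosen with these changes known, so nothing is read from the counts. The 3 comparisons share the cel-miR-67 library, and a deviation of that library would move all of them. For example, just inside the cutoff was Npr2 with miR-106b, at a log2 change of 0.42, and just outside it were Npr2 with miR-93, at 0.33, and Npr3 with miR-106b, at 0.32.

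**Figure D3:**
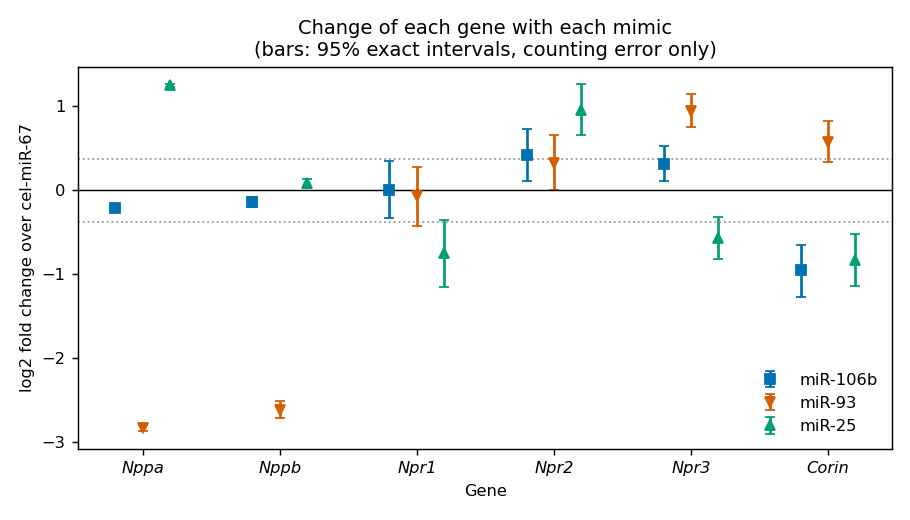
log2 change of the RPKM of each gene (horizontal axis) with each mimic over cel-miR-67, with 95% exact intervals for counting error. The dotted lines mark a 1.3-fold change. Nppa and Nppb are at -2.83 and -2.61 with miR-93, while Npr3 and Corin are above 0 with the same mimic.

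The mimics that share a seed were also compared directly, without the control library. Nppa was 6.15-fold lower with miR-93 than with miR-106b, a log2 difference of -2.62 (-2.66 to -2.58), the 5th in order of fall among 11391 genes. Nppb was 5.55-fold lower, a log2 difference of -2.47 (-2.57 to -2.37), the 6th in that order. Corin went the other way, with a log2 difference of 1.53 (1.25 to 1.81), the 4th in order of rise. Npr3 did so too, at 0.63 (0.46 to 0.80). The RPKM of Corin was 1.33 with miR-106b, under the stricter cutoff of 2.0, at which Corin was not compared and has no rank. Among all genes compared, 7.30% were higher and 8.21% lower with miR-93 than with miR-106b, and among the 6 genes 2 were higher and 2 lower. The seed of the mimics, AAAGUGC, was the same in both libraries, and what else set them apart was not tested.

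On the side of Nppb, the 3 nearest listed genes on chromosome 5 did not share the fall of the peptide genes with miR-93 in size. Their log2 changes with this mimic were 0.04 (-0.12 to 0.20) for RGD1305350, -0.29 (-0.41 to -0.17) for Plod1, a collagen lysyl hydroxylase, and -0.72 (-0.85 to -0.58) for Mfn2, a mitochondrial fusion gene, against -2.61 for Nppb. Mfn2 passed the cutoff here and, at -1.04, with miR-106b. The other changes of these genes did not pass it and were 0.15 and -0.33 for RGD1305350 and Plod1 with miR-106b, and 0.33, -0.19 and -0.12 for RGD1305350, Plod1 and Mfn2 with miR-25.

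Other genes with the most similar profiles were found by the Euclidean distance between log2 RPKM values centred over the 4 libraries, among 10699 genes above 1.0 RPKM in all of them. The nearest to Nppa were Mybpc2, which encodes a myosin-binding protein of fast skeletal muscle, at a distance of 0.748, Scn3b, a sodium channel subunit, at 0.946, Abca5, a lipid transporter, at 0.975, Ptgis, the prostacyclin synthase, at 1.09, and P3h2, a collagen prolyl hydroxylase, at 1.09. Nppb was 7th, at 1.11. The nearest to Nppb were Ildr2 at 0.320, AC120291.3 at 0.472, Mybpc2 at 0.483, Fhl1, a LIM domain protein of striated muscle, at 0.512, and Ifit1lb at 0.688. Nppa was 35th in order of distance to Nppb. These distances rest on 4 libraries and are descriptions.

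Enzymes that process or clear the peptides were examined next to the receptors. Of 10 genes listed, 8 had a row and 6 were compared, and 0 were higher and 4 lower with miR-106b and, likewise, with miR-93, against 12.7% and 15.6% lower over all genes, and the median log2 changes were -0.43 and -0.53. With miR-25, 1 was higher and 2 lower, against 19.3% and 22.6% over all genes, with a median of 0.12. After rescaling to the summed RPKM, 3 were higher and 1 lower with miR-25, and 3 were lower with each of the others. Over all genes, rescaling gave 4087 higher and 1441 lower of 11198 with miR-25. It gave 1086 lower of 11280 with miR-93 and 1256 lower of 11296 with miR-106b. The median over all genes compared, as deposited, was 0.00 with miR-106b and miR-93 and -0.01 with miR-25. Mme, which encodes neprilysin, a protease that degrades natriuretic peptides, was lower with each mimic. Its RPKM was 5.77 with cel-miR-67, 2.51 after miR-106b, 3.27 after miR-93 and 2.61 after miR-25, and its log2 changes were -1.20, -0.82 and -1.15. Furin, a convertase that cleaves the brain peptide precursor, had an RPKM of 28.7, 21.7, 17.1 and 35.6 in the same order. It was lower with miR-106b and miR-93, at -0.40 and -0.75, while its change of 0.31 with miR-25 did not pass the cutoff. Pcsk6, a convertase that activates Corin, was lower with each mimic, at -0.59, -0.65 and -0.40. Pcsk7, a related convertase, was lower with miR-106b, at -0.47, and higher with miR-25, at 0.47, and its change of -0.30 with miR-93 did not pass.

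A list of cyclic GMP signalling genes, among them soluble guanylate cyclase subunits, phosphodiesterases and G protein subunits, was mostly higher with miR-25. Of 24 genes listed, 21 had a row. With miR-25, 11 of 17 compared were higher and 1 lower, against 19.3% and 22.6% of all genes, with a median log2 change of 0.52. After rescaling 15 were higher and 1 lower, against 4087 and 1441 of 11198 over all genes. With miR-106b, 2 of 16 were higher and 4 lower, against 11.9% and 12.7% of all genes, with a median of -0.07. With miR-93, 4 were higher and 4 lower of 16, against 15.1% and 15.6%, with a median of -0.12 that was 0.03 after rescaling. Mrvi1, a substrate of cyclic GMP-dependent protein kinase, had an RPKM of 2.04 with cel-miR-67, 1.03 after miR-106b, 1.07 after miR-93 and 5.85 after miR-25, and its log2 changes were -0.99, -0.94 and 1.52. Rgs4, a regulator of G protein signalling, showed the same order of signs, at -0.69, -0.72 and 1.00. With miR-106b and miR-93 the RPKM of both Mrvi1 and Rgs4 was under the stricter cutoff of 2.0, at which their falls are not called. Pde2a, a phosphodiesterase that cyclic GMP stimulates, was higher with miR-25, at 0.88, and lower with miR-93, at -0.42. Rgs2, another regulator of G protein signalling, was higher with each mimic, with an RPKM of 26.3 for cel-miR-67 and between 51.7 and 63.2 in the others. Gucy1b3, a subunit of the soluble guanylate cyclase that nitric oxide activates, was also higher with each mimic, at 0.54, 0.81 and 1.18, and was singled out after its values were seen. Markers of smooth muscle were also higher in the miR-25 library, at a summed RPKM of 2079 against 781 in the control, and their part in these changes was not tested.

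**Figure D4:**
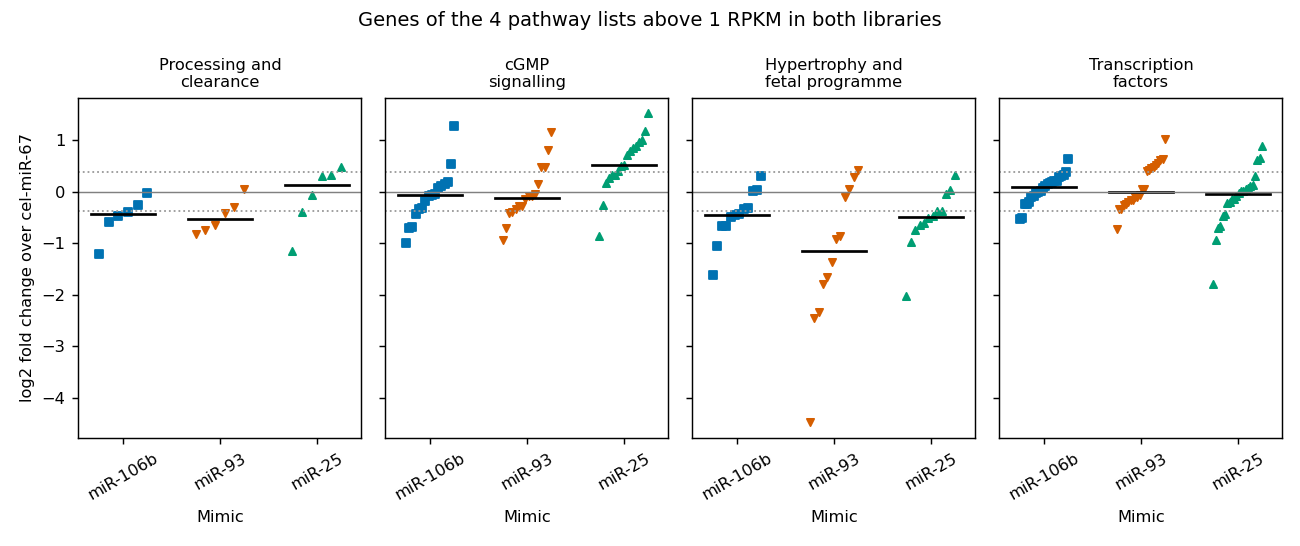
log2 change over cel-miR-67 of the genes of 4 pathway lists (panels) for the 3 mimics. Each point is a gene with an RPKM above 1.0 in both libraries, ordered by value, the bar is the median and the dotted lines mark a 1.3-fold change. The median is 0.52 for the cyclic GMP list with miR-25 and -1.15 for the hypertrophy and fetal genes with miR-93.

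Other genes of the hypertrophy and fetal programme, with which Nppa and Nppb are usually listed, were low in the miR-93 library too, where heart muscle markers summed to an RPKM of 10776 against 17369 in the control. Without Actc1, the cardiac alpha-actin, the markers summed to 8044 against 10297. Actc1 is in both lists and had an RPKM of 2733 with miR-93 against 7073 in the control. Myh6 and Myh7 are also in both lists and were kept in the sum. All 13 had a row, and with miR-93 1 of 12 compared was higher and 8 were lower, against 15.6% lower over all genes, with a median log2 change of -1.15. With miR-106b, 0 were higher and 7 lower, against 12.7% lower over all genes, with a median of -0.44. With miR-25, 0 were higher and 7 lower, against 22.6% over all genes, with a median of -0.50. After rescaling 1 was higher and 4 were lower, against 4087 and 1441 of 11198 over all genes. Of the 13 genes, 3 are also in a cell type list. Genes that rise and genes that fall in hypertrophy are counted alike, so the counts and medians do not give the direction of the programme. Xirp2, a protein of the intercalated disc, had an RPKM of 63.0 with cel-miR-67, 20.6 after miR-106b, 2.82 after miR-93 and 48.7 after miR-25. Its log2 change with miR-93 was -4.48 (-4.58 to -4.38). Fhl1 was at 259, 163, 47.3 and 263, and Rcan1, a target and regulator of calcineurin, at 158, 75.8, 31.4 and 122. With miR-93 their log2 changes were -2.45 and -2.33. Acta1, the skeletal alpha-actin, singled out after its values were seen, was at 587, 471, 170 and 738. The list did not move as a whole: Myh7, the slow myosin heavy chain, was at 1226, 1233, 1137 and 778, and the log2 changes with miR-93 of Myh7, Myh6 and Tnni1, also singled out after their values were seen, were -0.11, 0.06 and 0.27, none past the cutoff. Atp2a2, the calcium pump of the sarcoplasmic reticulum, which typically falls in hypertrophy, was lower with miR-25, at -2.03, and higher with miR-93, at 0.42. The counted falls also include those of Myh6, at -0.43 with miR-106b and -0.98 with miR-25.

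Transcription factors known to act on Nppa or Nppb were counted in the same way. Of 31 listed, 30 had a row and 22 were compared, and 5 of the 31 are also in a cell type list. With miR-106b 1 was higher and 2 lower, against 11.9% and 12.7% of all genes. With miR-93 9 were higher and 1 lower, against 15.1% and 15.6%, and with miR-25 3 were higher and 6 lower, against 19.3% and 22.6%. The median log2 changes were 0.10, -0.01 and -0.06, and after rescaling 0.13, 0.13 and 0.18. Rescaling gave 4 higher and 4 lower for miR-25, against 4087 and 1441 of 11198 over all genes. Irx4, a ventricular factor, had an RPKM of 8.47 with cel-miR-67, 13.1 after miR-106b, 17.2 after miR-93 and 2.46 after miR-25. Its log2 changes of 0.63, 1.03 and -1.78 had signs opposite to those of Nppa with each mimic. The signs were also opposite for Hand2, Klf15, Egr1 and Gata6, among others. The change of Nppa with miR-106b, at -0.21, did not itself pass the cutoff. Hand2, a helix-loop-helix factor, was at 44.9, 58.2, 66.0 and 23.4, higher with miR-93, at 0.56, and lower with miR-25, at -0.94, while its change of 0.37 with miR-106b did not pass the cutoff. Egr1, an immediate early factor, was at 0.46 (0.10 to 0.82) with miR-93 and -0.44 (-0.85 to -0.02) with miR-25. Klf15, a repressor of hypertrophic genes, was at 0.49 (0.13 to 0.85) and -0.71 (-1.15 to -0.27), and all of these changes passed the cutoff. With cel-miR-67 the RPKM of Egr1 was 1.51 and that of Klf15 1.93. Both were under the stricter cutoff of 2.0, at which none of these changes is called. Gata4 and Nkx2-5, singled out because their motifs were searched, were at 23.1 and 29.2 with cel-miR-67. The log2 changes of Gata4 were 0.15, -0.07 and 0.12 after miR-106b, miR-93 and miR-25, none past the cutoff. Those of Nkx2-5 were 0.33, 0.52 and 0.88, of which the last 2 passed it. The AP-1 and CArG motifs were searched too. Of their factors, Fos was lower with miR-106b and miR-93, at -0.51 and -0.72. The change of Fos with miR-25 and all changes of Jun and Srf did not pass the cutoff.

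Markers of the cell types that such cultures can hold moved as well, and their part in the changes of the peptide genes was not tested. Heart muscle markers were abundant in all libraries, with a summed RPKM of 14 genes of 17369 with cel-miR-67, 13994 after miR-106b, 10776 after miR-93 and 10757 after miR-25. With miR-25, 13 of the 14 were lower and 0 higher, with miR-93 7 were lower and 1 higher, and with miR-106b 5 were lower and 1 higher. The shares over all genes compared, beside which these and the following marker counts stand, were 22.6% lower and 19.3% higher with miR-25, 15.6% lower and 15.1% higher with miR-93, and 12.7% lower and 11.9% higher with miR-106b. After rescaling, 8 of the heart muscle markers were lower with miR-25, against 1441 of 11198 over all genes. Tnni3, the cardiac troponin I, had an RPKM of 351 with cel-miR-67 and 15.9 with miR-25. Per 100 RPKM of this sum, Nppa was at 10.7 with cel-miR-67, 11.5 after miR-106b, 2.42 after miR-93 and 41.1 after miR-25, and Nppb at 3.66, 4.13, 0.967 and 6.26. Without Actc1 in the sum, Nppa was at 18.1, 17.9, 3.25 and 76.2 and Nppb at 6.18, 6.45, 1.29 and 11.6, so that miR-25 was the highest and miR-93 the lowest library for both genes either way.

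Of 7 ventricular markers, 4 were lower with miR-25 and 0 higher, 1 was lower and 3 higher with miR-93, and 1 was higher and 0 lower with miR-106b, and the summed RPKM was 9509 with cel-miR-67 and 9736, 7550 and 4757 after miR-106b, miR-93 and miR-25. Of 12 atrial markers 8 were compared, with 3 higher and 2 lower with miR-106b, 6 higher and 1 lower with miR-93, and 1 higher and 4 lower with miR-25. Their summed RPKM was 163 with cel-miR-67 and 409, 387 and 144 in the same order. Nppa itself is an atrial gene after birth, and was not in this list. Myl7, the atrial myosin light chain, had an RPKM of 18.8 with cel-miR-67, 81.2 after miR-106b, 155 after miR-93 and 11.6 after miR-25. Other atrial markers had other orders: Myl4 was highest with miR-106b, at 262 against 83.2 in the control, Stard10 was highest with miR-25, at 4.51 against 1.32, and Sln, singled out after its values were seen, was lower with miR-93, at a log2 change of -0.50.

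Smooth muscle and pericyte markers summed to 781 with cel-miR-67, 716 after miR-106b, 613 after miR-93 and 2079 after miR-25. With miR-25, 5 of 8 were higher and 2 lower, among them Tagln at 1306 against 478 in the control library. With miR-106b 1 was higher and 2 lower of 8, and with miR-93 0 were higher and 3 lower of 7. Fibroblast markers summed to 838 with cel-miR-67, 654 after miR-106b, 760 after miR-93 and 334 after miR-25, and of 9 compared 5, 4 and 7 were lower and 0, 0 and 1 higher. Endothelial markers, 5 of which were compared, summed to between 21.1 and 27.5 over the 4 libraries, with 1 higher and 1 lower for both miR-106b and miR-93, and 1 higher and 3 lower with miR-25. Macrophage markers summed to between 13.6 and 21.5, with 1 higher and 1 lower of 6 with miR-106b, 2 higher and 1 lower of 6 with miR-93, and 0 higher and 4 lower of 5 with miR-25. Epicardial markers summed to between 30.9 and 44.3, and 2 of 6, 4 of 7 and 3 of 7 were higher and 0, 0 and 1 lower. The marker counts include calls whose interval held 0, such as Cd68 and Krt19 with miR-93, C1qb with miR-25 and Rgs5 with miR-106b. No marker with a row in these 8 lists was at 0 in any library.

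**Figure D5:**
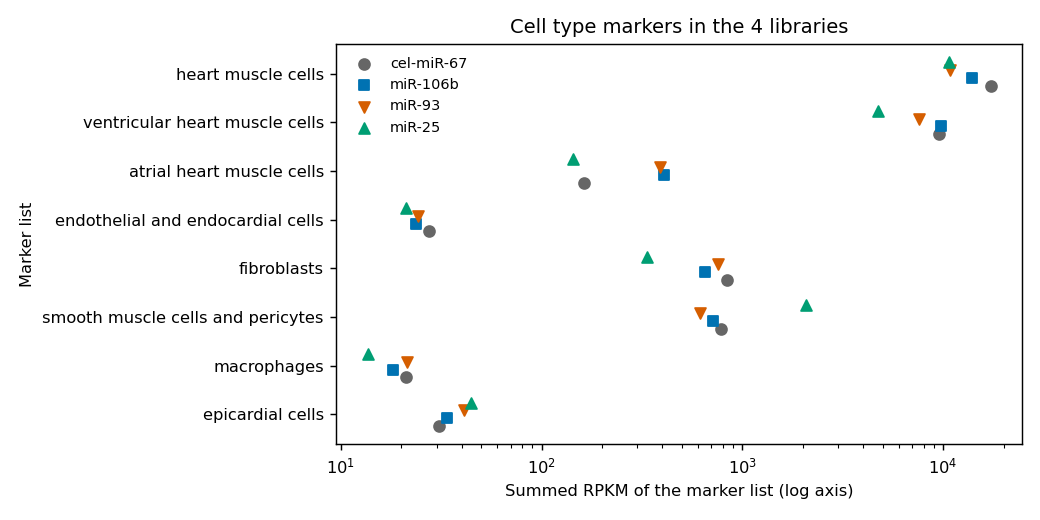
Summed RPKM (horizontal, log axis) of 8 lists of cell type markers in the 4 libraries, 1 point a library. Heart muscle markers sum to between 10757 and 17369 in each library, and smooth muscle markers are at 2079 with miR-25 and at most 781 in the others.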

How the data were processed

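RNA of 4 cultures of neonatal rat ventricular cardiomyocytes was sequenced, 1 library per mimic. The authors aligned trimmed reads with STAR to the Rnor 6.0 rat genome, rounded the gene counts and deposited RPKM values computed with edgeR's rpkm function. The submitters' processing notes list STAR 2.7. These values are not counts, so no count test was run, and genes were compared by the fold of RPKM with the study's cutoffs of 1.0 RPKM and 1.3-fold, although the methods state an RPKM cutoff of 2.0.

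Whole reads were recovered for 15731 genes. Ratios of a gene's RPKM between libraries were matched to ratios of whole numbers within a relative tolerance of 1e-10. Where no match was found, the shortest gene length that gave nearly whole reads in every library was used. The recovery was tested on simulated data. Listed genes held 60.4% to 66.9% of the library size. The genes and lists were chosen with earlier results of these data known.

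Named were the 7 genes, up to 4 genes per list above 1.0 RPKM in all libraries with the largest range of log2 RPKM, the 5 genes nearest to Nppa and to Nppb, and 3 chromosomal neighbours on each side. Some list genes that this rule selects are given only within counts, and the neighbours on the side of Nppa are not reported here. Alternatives were RPKM cutoffs of 2.0 and 10, 1.0 in either library and none, pseudocounts of 0.1 and 1, fold cutoffs of 1.5 and 2, centring on the median gene, rescaling to the summed RPKM, and calls only for intervals without 0. Motif and miRNA sequences came from RefSeq (GRCr8), not the build of the files, whose genome was not used here. A promoter was matched for 5 of the 6 genes. A symbol was listed more than once for 176 names. The scripts ran in Python 3.11.15 with matplotlib 3.10.9, pandas 2.3.3, scipy 1.17.1 and numpy 2.4.6.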

Additional observations from a re-analysis of the deposited data

How the results depend on the processing

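No paired analysis was possible because each mimic had 1 library, and for the same reason none could be left out. Of 72 alternative values of the genes' log2 changes, 65 moved by less than their counting interval, 7 by more and 0 values past the cutoff changed sign, while Npr1 with miR-93, at -0.07, was at 0.07 after rescaling. Rescaling to the summed RPKM shifted every log2 change by 0.03 for miR-106b, 0.15 for miR-93 and 0.24 for miR-25, and gave 1.49 for Nppa with miR-25 and 0.32 for Nppb. With miR-106b, 2 of the genes passed the cutoffs, against 0 with an RPKM cutoff of 2.0 or 10, 1 with a fold cutoff of 1.5, 0 with one of 2, and 1 with a pseudocount of 1. With miR-93, 4 passed, against 2 with an RPKM cutoff of 10 or a fold cutoff of 2, and these were Nppa and Nppb. With miR-25, 4 passed, against 2 with an RPKM cutoff of 2.0, and 1, Nppa, with one of 10 or a fold cutoff of 2. Over all genes, 2237 of 9930 passed with miR-106b and 3868 of 9769 with miR-25 at an RPKM cutoff of 2.0. With a pseudocount of 1, 2096 of 11296 passed with miR-106b. Higher RPKM cutoffs compare fewer genes, and higher fold cutoffs the same genes. Of the 72 genes of the pathway lists, 20 passed with miR-106b, against 9 at an RPKM of 10, 11 at 1.5-fold and 4 at 2-fold. With miR-93, 31 passed, against 16, 19 and 8, and with miR-25, 31 passed, against 15 at an RPKM of 10 and 5 at 2-fold. Rescaling turned the 15 higher and 16 lower of the list genes with miR-25 into 23 and 10, and the 14 and 17 with miR-93 into 15 and 14. Over all genes, rescaling gave 4087 higher and 1441 lower with miR-25, and 2839 higher and 1086 lower with miR-93. Leaving Actc1 out of the heart muscle markers was added after seeing the data. Depth limited Npr1, Npr2 and Corin most, with 93 to 390 reads a library.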
